A study of Rattus norvegicus with 27 samples.

Results

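Slc5a7, Chat, Slc18a3, Isl1 and Prph are 5 of the 17321 genes counted in punches of the cerebellar interpositus nucleus of 27 Long-Evans rats at postnatal day 70. They were chosen by name, as genes of cholinergic and motor neurons, from earlier results in these animals that showed Slc5a7 among the genes differing between normally reared (NT) males and females and at its highest in 1 NT male, animal 6112. The values in NT males therefore chose the genes, with NT females as the other side of that contrast. The NT male values are given as a description with no test. The study asked how limited bedding (LB), in which the cage held little nesting material from postnatal day 2 to 9, changed the transcriptome of the adult interpositus in each sex. NT rats comprised 5 females and 7 males, and LB rats 7 females and 8 males. All pups were cross-fostered on day 2 and reared in the same way after the stress. Each sample was RNA from round 2 mm punches over 3 sections of 1 mm, so it holds the nucleus with the cells around it. In such bulk tissue, fewer cells of a type and less RNA per cell cannot be told apart.

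Acetylcholine is made in the nerve terminal from choline and acetyl-CoA by choline acetyltransferase, the product of Chat. The choline comes from the synaptic cleft through the high-affinity choline transporter Slc5a7 and the product is loaded into vesicles by the vesicular acetylcholine transporter Slc18a3. Motor neurons of the brainstem and spinal cord use this machinery, develop under the LIM homeodomain factor Isl1, and carry the intermediate filament peripherin, Prph, in their axons. Cholinergic neurons of the forebrain and of the pontine tegmentum use the same enzyme and transporters, and the cerebellum itself holds few cholinergic cells.

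In rn6, the build of the counted gene models, Slc5a7 was on the minus strand of chromosome 9 (5294379 to 5330822) with 9 exons. Chat was on the minus strand of chromosome 16 (8576859 to 8686131) with 16 exons. Slc18a3 had a single exon on the same strand (8682668 to 8685529), which lay inside the first intron of Chat (8681102 to 8686029) and shared 0 bases with Chat exons. Their starts were 602 bases apart, which is why the promoters of both are shown beside that of Slc5a7. Isl1 was on the minus strand of chromosome 2 (48488911 to 48501217, 6 exons) and Prph on the plus strand of chromosome 7 (140742418 to 140746197, 9 exons).

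The promoters below, from 250 bases before to 50 bases after the start, are RefSeq sequence of the build GRCr8, at chr9:7953460-7953759, chr16:7723367-7723666 and chr16:7722765-7723064, all on the minus strand and read 5′ to 3′. Capitals mark matches on either strand to TATAAA (the TATA box), TGACG (the core of the cAMP response element) or GGGCGG (the GC box), and no match overlapped another.
Slc5a7: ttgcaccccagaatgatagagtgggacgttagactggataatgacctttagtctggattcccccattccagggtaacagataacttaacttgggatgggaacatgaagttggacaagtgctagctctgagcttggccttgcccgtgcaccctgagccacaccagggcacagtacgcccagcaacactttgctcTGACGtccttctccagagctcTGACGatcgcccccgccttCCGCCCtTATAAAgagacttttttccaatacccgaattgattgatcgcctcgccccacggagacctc
Chat: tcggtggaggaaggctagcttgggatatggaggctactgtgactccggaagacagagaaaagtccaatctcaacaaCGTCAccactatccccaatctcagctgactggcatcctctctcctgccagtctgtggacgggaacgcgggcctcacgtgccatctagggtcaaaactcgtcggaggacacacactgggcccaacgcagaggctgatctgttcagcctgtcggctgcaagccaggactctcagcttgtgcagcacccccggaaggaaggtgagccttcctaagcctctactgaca
Slc18a3: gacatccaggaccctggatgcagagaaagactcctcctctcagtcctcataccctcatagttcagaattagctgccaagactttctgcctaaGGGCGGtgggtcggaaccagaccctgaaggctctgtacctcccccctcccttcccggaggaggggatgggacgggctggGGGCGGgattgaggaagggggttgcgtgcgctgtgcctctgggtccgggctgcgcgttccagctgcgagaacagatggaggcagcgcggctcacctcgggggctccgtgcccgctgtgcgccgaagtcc
The Slc5a7 window held 1 TATAAA, 2 TGACG and 1 GGGCGG match. The Chat window held 1 TGACG match and the Slc18a3 window 2 GGGCGG matches. Slc5a7 thus shared TGACG with Chat and GGGCGG with Slc18a3, and none of the motifs searched was in all 3 promoters. TATAAA was found in 14.2%, TGACG in 21.2% and GGGCGG in 33.1% of the 33469 promoters of this length. TAATTA, the core bound by many homeodomain proteins, was in 5.36% of them and in none of the 3 windows. A match describes letters, not a site in use.

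Depth ranged from 11836684 to 24169170 counts per animal, so 3 counts, taken as the limit of detection, stood for 0.125 to 0.260 CPM (counts relative to the library total after scaling by the TMM factors of edgeR). Several punches carried markers of other tissue. Tbr1, a transcription factor of cortical neurons that some cerebellar neurons also express, was at 101.1 to 163.3 CPM in 3 males (NT males 3113 and 6111 and LB male 122) and at most 32.3 CPM in the other animals. Ttr, the main transcript of the choroid plexus, was at 6342 CPM in NT male 4113 against at most 241.3 CPM elsewhere. The Y-linked gene Eif2s3y had 516 to 1842 counts in males and at most 3 in females. Cerebellar granule and Purkinje cell markers were present in every animal, with sums of 2541 to 7654 CPM and 2826 to 6920 CPM.

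Slc5a7 was scarce in most punches and abundant in a single one. It had 3, 0, 1, 1 and 2 counts in NT females 1011, 1013, 2011, 2012 and 2013. In NT males the lowest value was 3 counts (animal 4113), the median 10 and the highest 2338 (animal 6112), which was 130.9 CPM (95% Poisson interval 125.7 to 136.4, counting error only). The next animal, NT male 6111, had 31 counts or 2.33 CPM, so that 6112 was 56.2 times higher. LB females had 0 to 8 counts (median 1) and LB males 0 to 17 (median 6). At least 3 counts were reached in 15 of 27 animals: 1 NT female, 7 NT males, 2 LB females and 5 LB males. Ordered by the group median, NT males (0.688 CPM) came before LB males (0.377), LB females (0.0724) and NT females (0.0509), and each neighbouring pair of groups in this order overlapped.

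Chat was also highest in 6112, but below that animal it did not always go with Slc5a7. NT females had 0, 0, 1, 1 and 1 counts, and none reached 3. NT males had 0 to 338 counts (median 12), with 338 counts or 18.9 CPM in 6112 and 12 counts each in 3111, 3113 and 6111. LB females had 0 to 3 counts (median 0) and LB males 0 to 9 (median 2). The 9 animals with 3 counts or more were 4 NT males, 1 LB female and 4 LB males. In 6112 the level was 18.2 times that of 3111, the next highest at 1.04 CPM. LB females 8021 and 8024 had 6 and 8 counts of Slc5a7 and 0 of Chat, whereas LB male 9122 had 6 counts of Chat and 1 of Slc5a7.

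Slc18a3 had 1, 1, 0, 0 and 1 counts in NT females. NT males had 1 to 189 counts (median 14), LB females 0 to 3 (median 2) and LB males 1 to 10 (median 2.5). The 189 counts of 6112 were 10.6 CPM, 8.72 times the 1.21 CPM of 3111. Below it stood the same 3 NT males as for Chat, 3111, 3113 and 6111, with 14, 19 and 16 counts. At least 3 counts were seen in 11 animals, none of them an NT female.

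Isl1, the factor that specifies motor neurons and several other neuron types, was close to absent. All 12 females had 0 counts, which allows up to 3 counts in each (0.217 CPM in the shallowest female library). Among NT males it had 12 counts in 6112, 5 in 3111, 1 in 3112 and 0 in the other 4. Among LB males it had 18 counts in 9122, 1 in 123 and 0 in the other 6. The highest Isl1 (1.23 CPM in 9122) was thus not in the animal with the highest Slc5a7, where Isl1 was at 0.672 CPM. LB male 9122 had 1 count of Slc5a7, and it also held 52 counts of Nkx2-1, a factor of the ventral forebrain, which had at most 2 counts in any other animal. The part of that tissue in the Isl1 counts was not tested.

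Prph was measured at 3 counts or more in 26 of 27 animals. NT females lay close together at 6, 7, 8, 9 and 6 counts (0.322 to 0.458 CPM). NT males spread from 2 counts in 4111 to 994 in 6112 (median 85), LB females from 3 to 56 (median 7) and LB males from 3 to 151 (median 13). The 55.7 CPM of 6112 were 4.25 times the 13.1 CPM of 3111. Prph was above every NT female by a wide margin in several animals with few Slc5a7 counts. LB female 5022 had 56 counts of Prph and 0 of Slc5a7, LB male 9122 had 57 and 1, and NT male 4113 had 61 and 3.

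**Figure D1:**
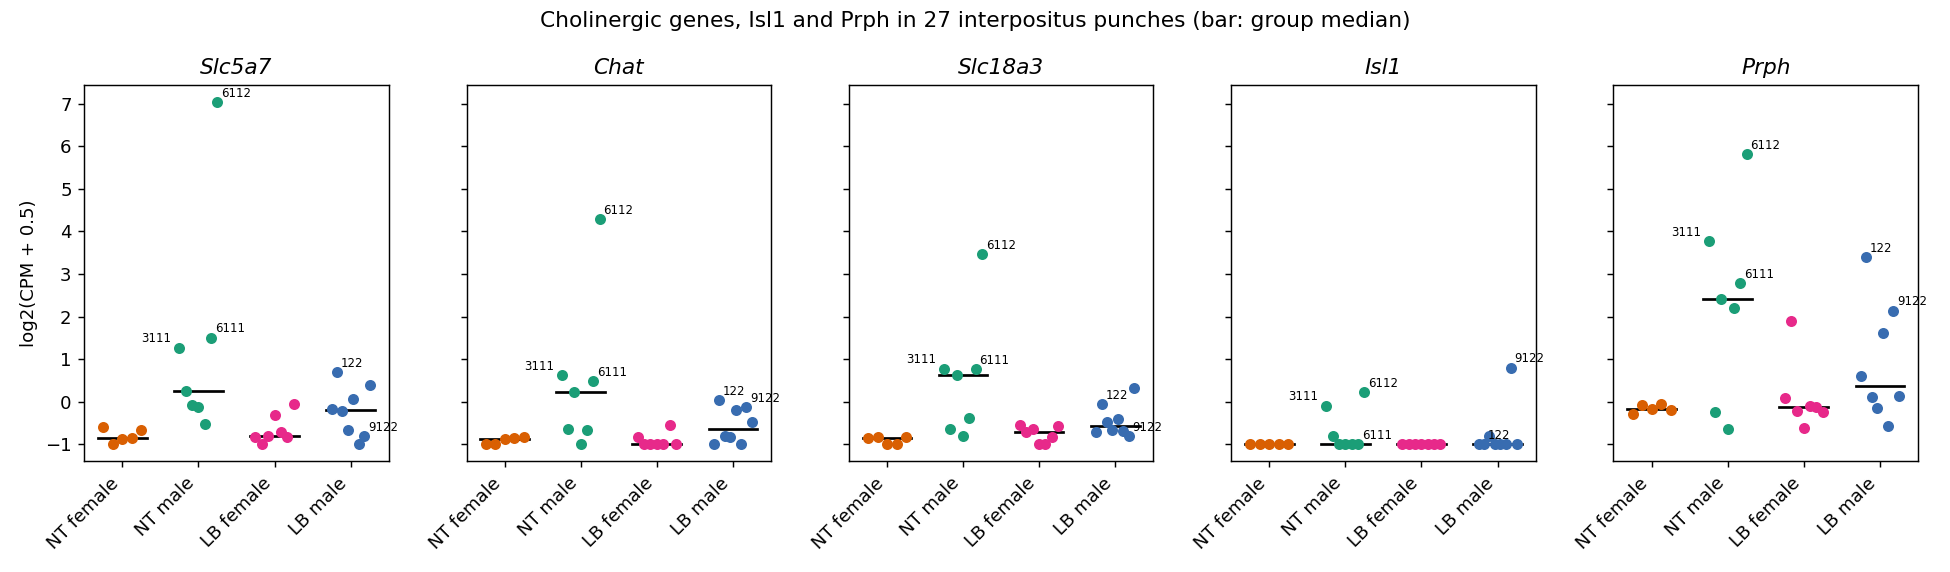
Level of each gene as log2(CPM + 0.5) in every animal by group, with 1 point per animal and a bar at the group median; animals 6112, 6111, 3111, 122 and 9122 are named. NT male 6112 stands far above the rest for Slc5a7 (130.9 CPM), Chat (18.9), Slc18a3 (10.6) and Prph (55.7), while Isl1 is highest in LB male 9122 (1.23).

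Per kilobase of exon, the levels in 6112 were 31.8 CPM for Prph, 26.8 for Slc5a7, 5.26 for Chat, 3.70 for Slc18a3 and 0.634 for Isl1. Of the 2865 counts of Slc5a7, Chat and Slc18a3 together in 6112, Slc5a7 took 81.6% (80.1 to 83.0, exact Clopper-Pearson interval). Of the 340 counts of these 3 genes in the other 26 animals together, it took 47.6% (42.2 to 53.1). Slc18a3 took 6.60% and 30.3% of these counts, and Chat 11.8% and 22.1%. Single animals differed in this share. In the 8 other animals with at least 10 counts over the 3 genes it ran from 20.5% in 3113 to 72.7% in LB female 8024 (median 49.5%). All lay below the value of 6112, but such shares rest on few counts, 8 of 11 in 8024. Corrected for exon length, the pooled Slc5a7 share was 74.9% in 6112 and 36.8% in the others. The intervals cover counting error only, and the 6112 value rests on 1 animal. That animal was singled out by its Slc5a7 level, so its high share is a description and not a test. The interval of the other 26 animals treats them as 1 pool and leaves out the spread between them.

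Over the 27 animals Pearson's r of log2(CPM + 0.5) with Slc5a7 was 0.95 for Chat, 0.94 for Slc18a3, 0.74 for Prph and 0.48 for Isl1. Animal 6112 carried much of this. Without it r was 0.75 for Chat, 0.80 for Slc18a3, 0.59 for Prph and 0.095 for Isl1 over 26 animals. Without 6112 and 6111, the 2 animals farthest from the median of Slc5a7, r was 0.68, 0.74, 0.52 and 0.15 in the same order. For Isl1, r was 0.84 without LB male 9122, the animal with the highest Isl1, so 1 animal decided this value in either direction. Spearman's rho over all animals was 0.59, 0.70, 0.39 and 0.33. Without 6112 and the 3 males with Tbr1 of at least 50 CPM, r over 23 animals was 0.65 for Chat, 0.78 for Slc18a3, 0.41 for Prph and 0.21 for Isl1. These are descriptions of values that share their libraries and, below 6112, rest on few counts per animal, and the differences in r between the genes were not tested.

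**Figure D2:**
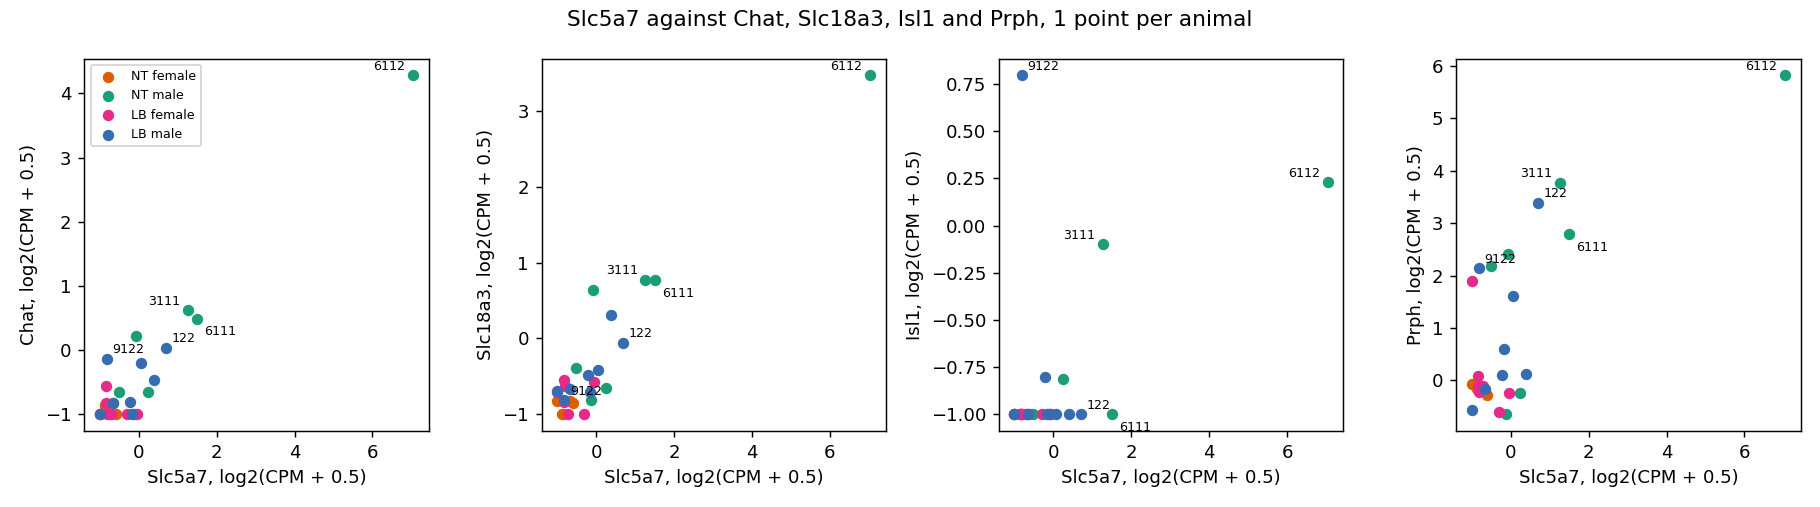
Slc5a7 (horizontal axis) against Chat, Slc18a3, Isl1 and Prph (vertical axes, each with its own range), all as log2(CPM + 0.5), with 1 point per animal coloured by group. NT male 6112 lies alone at the upper right for Chat, Slc18a3 and Prph, and LB male 9122 has the highest Isl1 at a Slc5a7 of 1 count.

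Of the 12871 genes with at least 10 counts in at least 1 animal, Chat was the gene most like Slc5a7 and Slc18a3 the third. The other 10 genes at the top were Gabrq (r = 0.94), Dbh, Slc17a8, Oprm1, Galr1 and Klhl14 (0.93 each), Ncmap and Lmx1b (0.92 each), and Slc10a4 and Lnc016 (0.91 each). Dbh encodes the enzyme that makes noradrenaline, Slc17a8 a vesicular glutamate transporter, Oprm1 the mu opioid receptor and Galr1 a galanin receptor. Lmx1b is a homeodomain factor of hindbrain serotonergic and other neurons, and Slc10a4 is a vesicle protein of cholinergic and monoaminergic terminals. Each of the 10 had its highest value in 6112, from 15 counts (Ncmap) to 361 (Slc10a4). Gabrq, Dbh, Oprm1, Galr1, Ncmap, Lmx1b and Lnc016 had at most 6 counts in any other animal, so they met the limit of 10 counts through 6112 alone. Without 6112 their ranks fell to between 61 (Slc17a8) and 1935 (Lnc016), whereas Slc18a3 was at rank 6 and Chat at rank 50.

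The genes most like Prph, a list drawn up after the values were seen, were Hebp2 (r = 0.95), Ass1 (0.94), Pou3f3 (0.93), Txnrd3 (0.92) and Cyp2s1 (0.91), and r without 6112 was 0.93, 0.91, 0.90, 0.88 and 0.86. By the same measure Chat was at rank 67 for Prph (r = 0.84), Slc18a3 at rank 110 (0.82) and Slc5a7 at rank 378 (0.74). Without 6112 Chat was at rank 20 with r = 0.85. Ass1 encodes argininosuccinate synthase and Pou3f3 a POU-domain factor of neurons.

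In 6112 other genes of acetylcholine handling were also at the top. Of the 14 listed, 8 had their highest value there, 5 of them beside Slc5a7, Chat and Slc18a3. They were Ache, acetylcholinesterase (176.8 CPM against at most 88.8 elsewhere), Prima1, which anchors it to the membrane (50.6 against 22.3), Slc10a4 (20.2 against 0.892), Bche, butyrylcholinesterase (10.6 against 6.17), and the choline transporter-like gene Slc44a1 (344.3 against 258.0). Over all genes with at least 10 counts in at least 1 animal, 6112 was the highest of 27 animals for 16.3%. Its level with 0.5 CPM added was at least 2 times that of the next animal for 1.75%. A gene that reached 10 counts only in 6112 was all but bound to be highest there. This holds for these shares and for the counts of highest genes in every list below, which are descriptions. Of the listed genes of choline phosphorylation and its use in phospholipid, Chkb (32.2 CPM) was the lowest of all animals, Pcyt1b (20.7) the second highest, and Chka (56.5) and Pcyt1a (25.7) lay inside the range of the others, as did the transporter-like gene Slc44a2 (54.0).

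Of 15 receptor genes with enough counts, 4 were highest in 6112. These were the muscarinic receptors Chrm2 (13.9 CPM against at most 5.34) and Chrm5 (2.52 against 0.343) and the nicotinic subunits Chrna6 (2.18 against 0.728) and Chrna2 (1.51 against 0.987). Chrm1, Chrm3 and Chrna5 were instead highest in 6111, at 58.1, 52.1 and 11.96 CPM, and Chrm4 in 3113, at 39.2 CPM. Tbr1 was at 163.3 CPM in 6111 and 101.1 in 3113, and the part of forebrain tissue in these receptor values was not tested.

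The filaments of large axons were at their highest in 6112. Nefm was at 1683 CPM (at most 972.3 elsewhere), Nefh at 1414 (542.7) and Nefl at 977.3 (426.1), the 3 neurofilament subunits. Vamp1, a vesicle protein (1001 against 836.5), Scn4b, a sodium channel subunit (120.7 against 94.9), and Sncg, gamma-synuclein (39.9 against 24.5), were highest too, so 6 of the 10 genes of this list beside Prph were. Stmn2, a growth-associated gene of axons in general, was the lowest of all animals (782.8 CPM). Animal 3111 came next after 6112 for Prph, Nefh, Nefm, Nefl and Sncg.

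The name motor neuron was not borne out by its defining genes. In 6112 the motor factors Mnx1 and Tbx20 and the peptide gene Uts2 had 0 counts, Isl2 had 2, Lhx4 3, Phox2a 6 and Isl1 12. Lhx3 was not analysed here. Of the hindbrain Hox genes 15 were measured and 8 had 0 counts in 6112, while Hoxc4 had 9 and Hoxd1 38, and their sum was 3.19 CPM against at most 2.86 elsewhere (animal 3111). Other listed genes were highest in 6112: Calca, which encodes the peptide CGRP (6.94 CPM against at most 0.999), Nkx6-1, a ventral progenitor factor (1.85 against 0.434), the GDNF receptor Gfra1 (47.0 against 25.9), and Calcb (0.728 against 0.555). Of the 12 identity genes beside Isl1 with 10 counts or more somewhere, 4 were highest in this animal. The genes are therefore called cholinergic genes and Prph here, without a name for the cells that hold them.

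**Figure D3:**
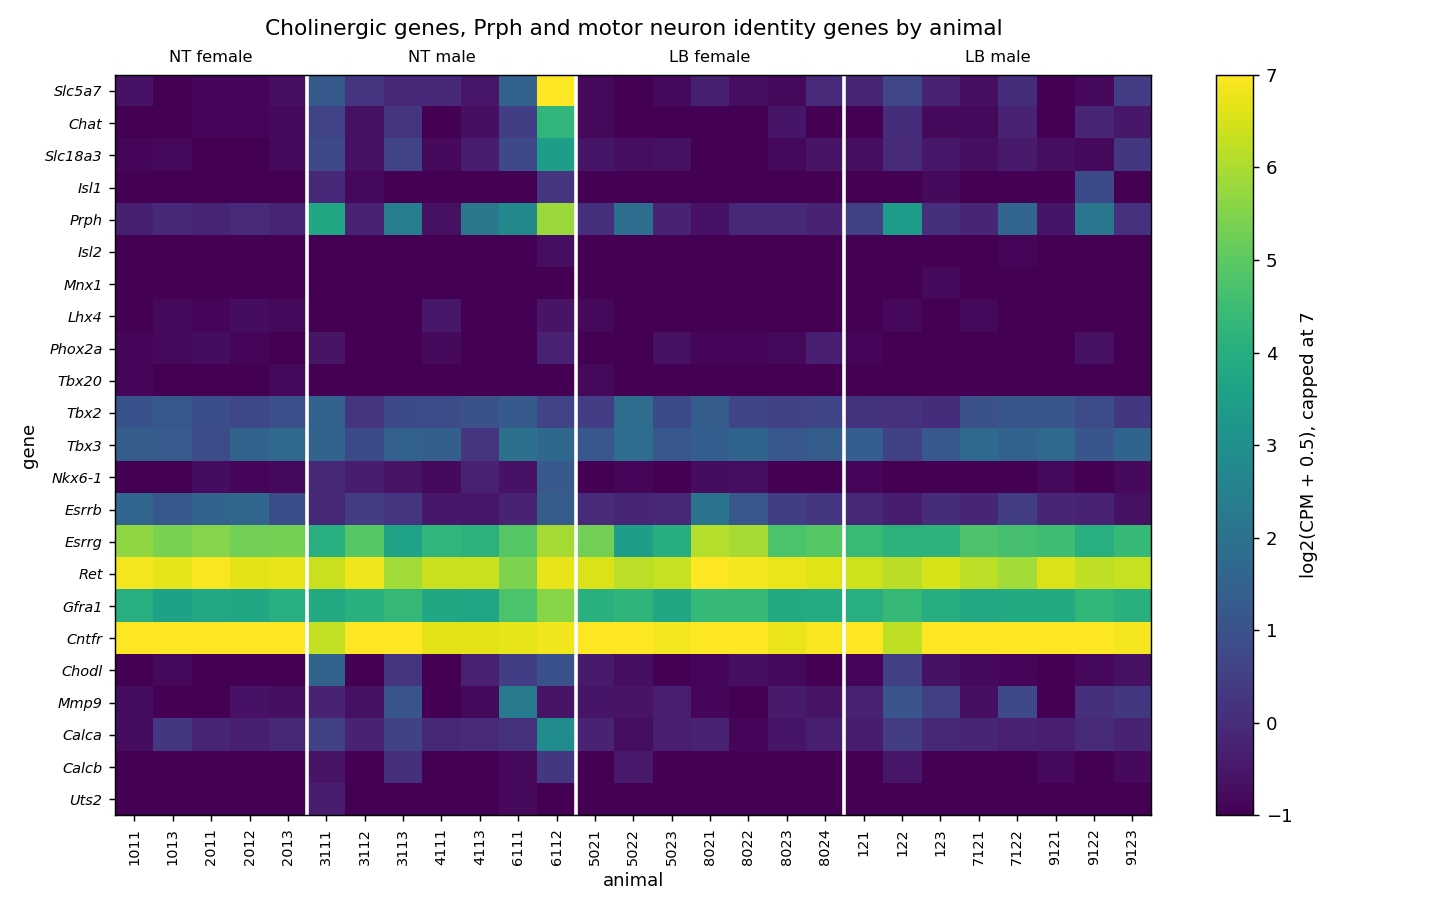
Level of the cholinergic genes, Isl1, Prph and the listed motor neuron identity genes (rows) in each animal (columns, by group) as log2(CPM + 0.5), with the colour scale ending at 7. Slc5a7, Chat, Slc18a3, Prph and Calca stand out in NT male 6112, whereas the rows of Isl2, Mnx1, Lhx4, Phox2a, Tbx20 and Uts2 stay below 0 on this scale in every animal.

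Marker lists of other cells also moved with 6112. No list was made for neurons of the nucleus itself, so a gene such as Slc17a6 is not placed inside or outside it here. Of 10 genes of monoamine neurons 8 were highest there, among them Th (4.82 CPM against at most 1.89), Dbh (2.30 against 0.520), the noradrenaline transporter Slc6a2 (1.96 against 0.607) and the serotonin transporter Slc6a4 (1.18 against 0.171), while Fev, the serotonergic factor, had 0 counts in all animals. Dbh, Slc6a2 and Slc6a4 had at most 6, 7 and 3 counts in any other animal, so they entered the 10 genes through 6112 alone. The summed level of that list was 154.7 CPM in 6112 and 71.9 to 112.3 in the others. Of 12 genes of glycinergic and brainstem neurons 6 were highest, led by the glutamate transporter Slc17a6 (380.3 against at most 74.9, in LB male 7122) and Tac1 (39.2 against 14.98), and the sum was 947.8 CPM against 303.0 to 614.9. Ucn, a peptide of the midbrain, was at 0 counts. Of 6 genes of forebrain cholinergic neurons 3 were highest in 6112, among them Lhx8 (0.616 CPM, 11 counts) and Slc17a8 (5.15 CPM), but the sum of the list (37.0 CPM) was near the low end of 34.9 to 89.98. Of 3 sensory neuron genes with enough counts 1, Drgx, was highest (1.40 against 1.39), and Scn11a and Runx3 were at 0.

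Oligodendrocyte markers were highest in 6112 for 5 of 7 genes, and their sum was 19362 CPM against 3103 to 16457. Among Schwann cell markers 5 of 8 were highest, among them Pmp22, a myelin protein (125.5 CPM against at most 94.4), and Prx, periaxin (8.34 against 3.94). With Mbp in it, the summed list was 26830 CPM against 4018 to 35868. Granule cell markers had their lowest sum of all animals (2541 CPM against 2946 to 7654) and none of 8 was highest, and Purkinje cell markers were at rank 24 of 27 (3269 CPM against 2826 to 6920). Meningeal markers (327.3 CPM against 133.3 to 727.2, Ogn at 0), choroid plexus markers (126.1 against 14.7 to 6521, Otx2 at 0) and forebrain markers (285.1 against 410.7 to 813.3) were within or below the range of the others. The part of these cells in the Slc5a7 level of 6112 was not tested.

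**Figure D4:**
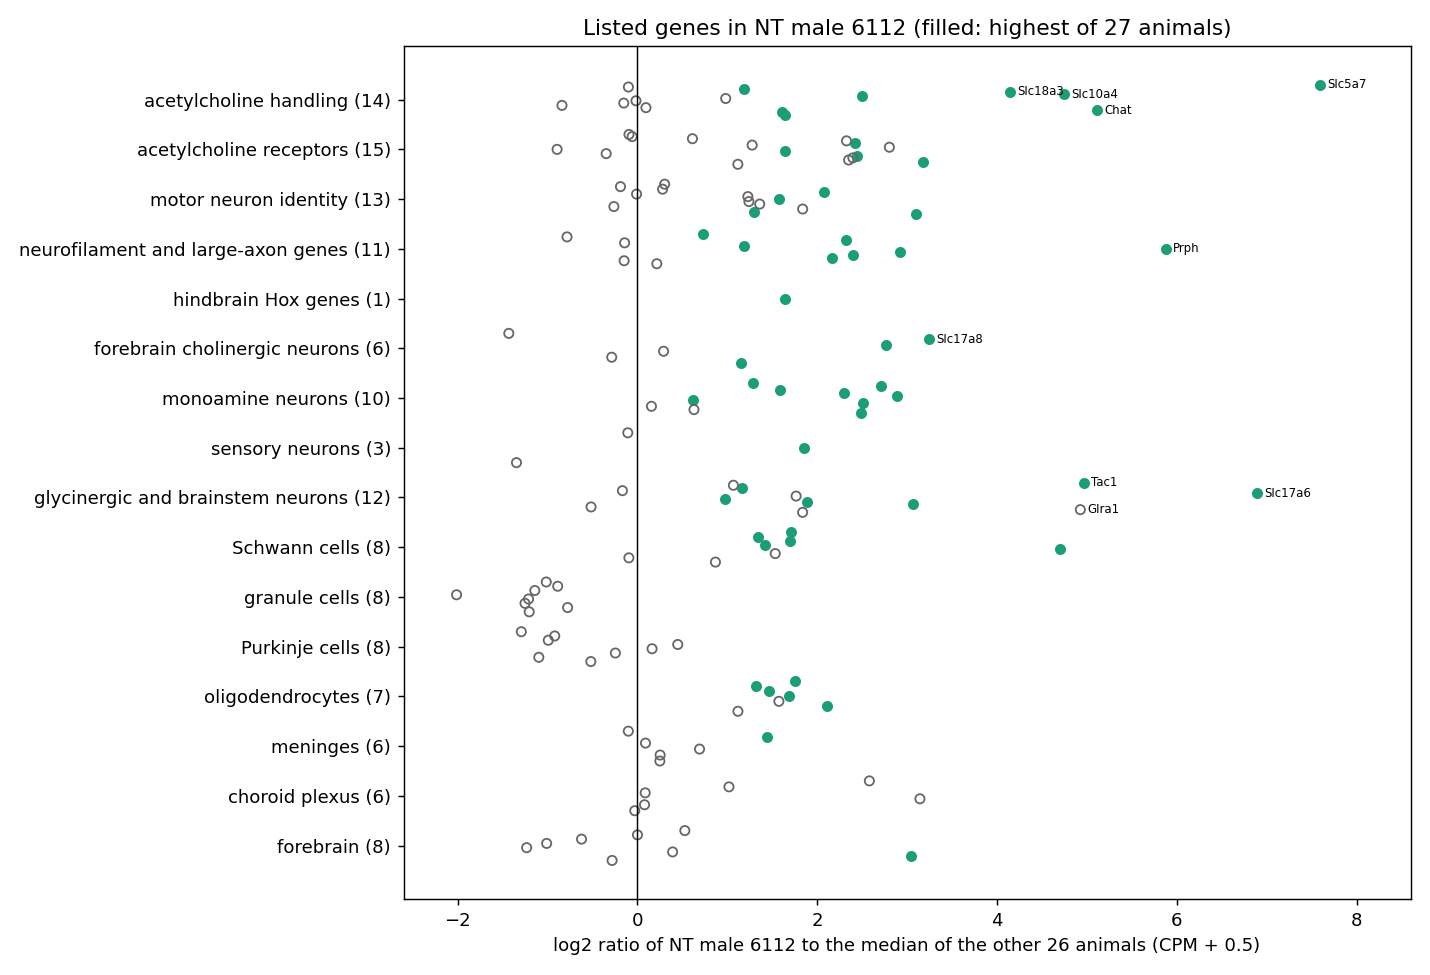
For each listed gene with at least 10 counts in at least 1 animal, the log2 ratio of its level in NT male 6112 to the median of the other 26 animals (0.5 CPM added to both), by list, with the number of genes plotted in parentheses and filled points where 6112 was the highest of 27. Slc5a7, Slc17a6, Prph and Chat lie farthest to the right, and all 8 granule cell markers lie below 0.

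The genes that set 6112 apart most, beside those above, were C1ql4 (16.5 CPM against at most 0.267), Nps (124 counts, with 0 in every other animal), Slc10a4, Gpr165 (52.4 against 4.14), Ttc29 (4.31 against 0.137), Trhr (14.001 against 1.504), Fgf1 (14.4 against 1.73), Klhl14 (11.5 against 1.30), Irx4 (7.28 against 0.694) and Slc6a11 (150.8 against 24.7). Nps encodes neuropeptide S, which is made by small groups of neurons in the brainstem, Trhr the receptor for thyrotropin-releasing hormone and Slc6a11 a GABA transporter.

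Between NT males and NT females, the contrast that led to the choice of these genes, every NT male was above every NT female for Slc5a7 (0.200 to 130.9 against 0 to 0.161 CPM) and for Slc18a3 (0.0700 to 10.6 against 0 to 0.0646), which held for 3.45% of all genes with enough counts. The lowest NT male of each lay at or below the limit of detection. Its raw count equalled that of the highest NT female (3 for Slc5a7 and 1 for Slc18a3), so the order at this border came from the scaling of the libraries. Chat, Isl1 and Prph overlapped between these groups. Without 6112 the other 6 NT males had medians of 0.566 CPM for Slc5a7, 0.402 for Chat, 0.661 for Slc18a3, 0 for Isl1 and 4.45 for Prph, against 0.0509, 0.0492, 0.0536, 0 and 0.394 in NT females.

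The 5 lists of acetylcholine handling, receptors, motor identity, axonal filaments and Hox genes together had 85 genes, of which 76 were counted and 46 had enough counts for a test; Slc5a7, Slc18a3 and Prph were among the 46 and Chat and Isl1 were not. In the contrast of NT males with NT females, which chose the 5 genes, the fit of edgeR (p adjusted by Benjamini-Hochberg over 12107 genes) put 18 of the 46 past the threshold, beside 15.2% of all genes. That count is a description and is not read as a test. Left without Slc5a7, Slc18a3 and Prph, 12 of 43 genes were higher in males and 3 lower, beside 10.1% of all genes higher and 5.08% lower. Their median log2 fold change was 0.30 and that of all genes 0.03. The 12 were Slc10a4 and Prima1 of acetylcholine handling, the receptors Chrm1, Chrm4 and Chrna5, the motor identity genes Chodl, Mmp9 and Calca, the filament and axon genes Nefm, Nefl and Sncg, and Hoxd1. The receptor subunit Chrnb4 and the motor identity genes Cntfr and Esrrb were lower. All 7 oligodendrocyte genes tested were higher and 5 of 8 granule cell genes lower in the same contrast, and their part in the list counts was not tested. The 18 genes became 8 with limma-voom. The limma-voom fit gave 0 when animals with a shared title prefix were a random block with an estimated correlation (consensus 0.17). In edgeR the count was 6 with only these 2 groups in the fit or with 10 counts required in every animal. Leaving out 1 animal gave 9 to 24, with 11 without 6112, 10 without 3111 and 9 to 11 without any 1 of NT females 1011, 1013, 2011 and 2012. The count was 10 without the males 6111 and 4113, and 11 without 3113, 6111, 4113 and LB male 122. The share of all genes called in each of these settings is not reported here. Whether the list moved apart from all genes was not tested.

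The values of LB rats were not those that chose the genes. In these rats the fitted levels of Slc5a7, Chat, Slc18a3 and Prph were higher in males than in females. No difference passed the threshold. The model held all groups, so each SE and p also drew on the spread of the NT males, whose values chose the genes. The tests in LB rats are therefore not free of that choice, and its effect on them was not tested. Slc5a7 was at 0 to 1.12 CPM in males and 0 to 0.461 in females (log2 difference 1.39 ± 1.42, SE; edgeR adjusted p = 0.628). Slc18a3 was at 0.0686 to 0.740 against 0 to 0.186 CPM (1.39 ± 0.972; edgeR adjusted p = 0.474). Prph was at 0.178 to 9.97 against 0.156 to 3.199 CPM (1.60 ± 0.910; edgeR adjusted p = 0.371). For Chat, which could be fitted only without a filter on low counts, the difference was 2.39 ± 1.38 (edgeR adjusted p = 0.404), with 0 to 0.528 against 0 to 0.181 CPM. The groups overlapped for each of these genes, and a p above the threshold does not show that the sexes were alike. No fold is given for Isl1, with 19 counts over the males and 0 over the females. Of the 46 list genes 0 passed in edgeR, beside 0.248% of all genes. An unadjusted p under 0.05 was found for 13 of them and for 2053 of all 12107 genes. DESeq2 called 2 (Chrm4 among them) and 3.37% of all genes. Without LB female 5022, the female with the highest Prph, edgeR called 3 (Chrnb2, Esrrb and Esrrg, all lower in males). The share of all genes called in that fit is not reported here. The median log2 fold change of the 46 was -0.06, that of all genes 0.008.

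Limited bedding was compared with normal rearing within each sex. As the model held all groups, each SE and p in females also drew on the spread of the NT males. The NT females themselves took part in the contrast that led to the choice of the genes. The tests in females are therefore not free of that choice, and its effect on them was not tested. In females Slc5a7 was at 0 to 0.461 CPM in LB and 0 to 0.161 in NT (log2 difference 0.95 ± 2.03, SE; edgeR adjusted p = 0.906). Prph was at 0.156 to 3.199 in LB and 0.322 to 0.458 CPM in NT (0.96 ± 1.14; edgeR adjusted p = 0.825), and the sign turned without LB female 5022 (-0.085). Chat, Slc18a3 and Isl1 had at most 3 counts in any female, and no fold is given. Of the 46 list genes 0 passed in edgeR and DESeq2, where 0.00826% of all genes passed in edgeR, and 1 had an unadjusted p under 0.05, as did 7.94% of all genes. In males the medians were 0.377 CPM in LB and 0.688 in NT for Slc5a7, 0.147 and 0.666 for Chat, 0.175 and 1.05 for Slc18a3, 0 in both for Isl1, and 0.800 and 4.83 for Prph. The ranges overlapped for each, and as the NT males chose the genes no test is given for them. Of the list genes 0 passed in males in edgeR and DESeq2, where 0% of all genes passed in edgeR. The 46 genes include those chosen on the NT males. An unadjusted p under 0.05 was found for 15 of the 46, with Slc5a7, Slc18a3 and Prph among the 15, and for 1211 of all 12107 genes. That count rests in part on the values that chose the genes, so it is a description and is not read as a test. The NT groups serve in both the sex and the rearing comparisons, so these are not independent of each other.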

How the data were processed

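The authors deposited 1 table of raw counts per gene for 27 animals. Per the labels, reads from a KAPA mRNA Hyperprep library were aligned to rn6 with STAR 2.5.2b and counted over exons with featureCounts (Subread 1.5.1); the strand setting and the multi-read setting are not given in the sources used here. The study left out samples of low RNA integrity before sequencing. Groups came from the labels of sex and treatment, and animals are named by their sample titles. The labels do not say which animals shared a litter or a cage. The 5 genes and all 16 gene lists were chosen with earlier results of these data known.

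The deposited counts were scaled by TMM and compared by quasi-likelihood F tests in edgeR 4.0.16 (robust; filterByExpr with a minimum count of 10 and a total of 15) in 1 model of the 4 groups, for 12107 genes, with a threshold of 0.05 on the adjusted p (Benjamini-Hochberg). Fold changes used a prior count of 0.125, and a standard error is the fold change divided by the root of its F statistic. Levels are CPM, and correlations and ratios used 0.5 CPM added. Genes were named by rule: the 5 genes; listed genes that passed, up to 6 per comparison; the 10 most like Slc5a7; the 10 with the highest ratio of 6112 to the next animal; and, in each list, up to 6 with the highest level in 6112 and the markers at 0. Other genes named, and the 4 promoter motifs, were chosen after their values or sequences were seen. DESeq2 1.42.0 and limma 3.58.1 served as alternatives. The code for the tests was tested on simulated data. No pair of columns was identical (0 of 351 pairs). Values of some listed genes are not reported here.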

Additional observations from a re-analysis of the deposited data

Results flagged for a closer look

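In 8 of the 18 combinations of gene and group with any counts, a single animal stood apart from its group. The rule was the gap to its nearest neighbour (Dixon's test at the 95% level). Chance alone passes it in about 1 in 20 groups where values are normally distributed. Many of these values lie at or near 0 and the genes share their animals, so that rate need not hold here. The genes were chosen with the values of NT male 6112 known, so its own values here are a description. They made up 4 of the 8, at 130.9 CPM for Slc5a7, 18.9 CPM for Chat, 10.6 CPM for Slc18a3 and 55.7 CPM for Prph. LB male 9122 stood apart for Isl1 at 1.23 CPM (18 counts). For Prph, LB female 5022 stood apart at 3.199 CPM and LB male 122 at 9.97 CPM. LB female 8023 stood apart for Chat at 0.181 CPM, which is 3 counts and the limit of detection.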

How the results depend on the processing

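The count of 18 list genes in NT males against NT females was 8 with limma-voom. Adding the shared title prefix as a random block to the limma-voom fit gave 0. In edgeR the count was 6 with 10 counts required in every animal, 6 with only the 2 groups compared, and 9 to 24 with 1 animal left out. A pair of alternatives was chosen after seeing the data. Without NT males 6111 and 4113 the count was 10, and without these, 3113 and LB male 122 it was 11. In that last setting the count between LB and NT males was 1 instead of 0. The gene was Slc5a7 with 6112 still in the NT group, so it rests on the values that chose it and is no test. In LB males against LB females the count of 0 became 2 with DESeq2 and 0 to 3 with 1 animal left out. Apart from DESeq2, the share of all genes called in these settings is not reported here. Prph in LB against NT females was the only tested fold change to change sign, to -0.085 without LB female 5022, with a range of -0.085 to 1.12 over the animals left out in turn.

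The correlations with Slc5a7 became, as Spearman's rho, 0.59 for Chat, 0.70 for Slc18a3 and 0.39 for Prph, without the 2 farthest animals 0.68, 0.74 and 0.52, and without 6112 and the 3 animals high in Tbr1 (chosen after seeing the data) 0.65, 0.78 and 0.41. With 1 animal left out they ranged from 0.75 to 0.96, 0.80 to 0.96 and 0.59 to 0.77, and for Isl1 from 0.095 to 0.84. Detection at 1 count gave 24 animals for Slc5a7, 17 for Chat, 23 for Slc18a3 and 27 for Prph, and at 10 counts 7, 4, 5 and 10. The cause of these changes was not tested. Depth limits Slc5a7, Chat, Slc18a3 and Isl1 outside 6112, where most values lie within a few counts of 0. The labels give no replicate numbers shared between groups. No paired analysis was possible because the groups share no numbers.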
